A study of Mus musculus with 27 samples.

Results

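The enzymes that pass pyruvate into the tricarboxylic acid (TCA) cycle, and those that turn the cycle, were described here through 9 genes taken by name from the tables of 54532 genes: Pdha1, Dlat, Cs, Idh3a, Ogdh, Suclg1, Sucla2, Fh1 and Mdh2. All 9 were present in both count tables and all 9 passed the filter on low counts in every comparison. The study addressed how disulfiram (DSF), a drug given against alcohol dependence, acts on B cell activation, and RNA-seq was done on splenic B cells that had been cultured for 3 h. The B cells came from wild-type C57BL6 mice by negative selection, so no transgene or deletion was carried by any group. In the first experiment there were 5 groups of 4 libraries: unstimulated B cells (NS), lipopolysaccharide (LPS), IL-4+anti-CD40, and either stimulus plus 1 μM DSF. The Methods of the study put DMSO in the names of the groups without inhibitor. Library names of the first experiment do not carry it, and the stimulated libraries without inhibitor are labelled vehicle. A second experiment had 1 library for each of the same 5 conditions and 1 for each stimulus with 1 μM ibrutinib, an inhibitor of Bruton's tyrosine kinase (Btk). Figure legends of the study call the cells with DSF or ibrutinib pre-treated, without giving the time before the stimulus. Below, DSF or ibrutinib added to a stimulus names the combination and not the order. The study calls the libraries of a group biologically independent, and neither it nor the labels say whether they came from separate mice, so p-values measure the spread between these libraries.

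The pyruvate dehydrogenase complex converts pyruvate into acetyl-CoA in the mitochondrial matrix, and citrate synthase joins that acetyl-CoA to oxaloacetate to form citrate. The following enzymes oxidise the carbon stepwise, release carbon dioxide, and hand electrons to the respiratory chain. Resting B cells have a low metabolic rate, and activated B cells raise both glycolysis and mitochondrial respiration as they prepare to divide. The complexes of pyruvate dehydrogenase and of 2-oxoglutarate dehydrogenase need lipoic acid bound to their acyltransferase subunits.

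The start sites of 4 of these genes are shown because the genes went in opposite directions with DSF: Dlat, Suclg1 and Fh1 were lower under both stimuli, and Cs was higher under both. Each window covers 250 bases before and 50 bases after the RefSeq start (assembly GRCm38.p6), 300 bases in all, and is printed 5′ to 3′ on the strand of the gene. Capitals mark the GC box (GGGCGG) and the CCAAT box (CCAAT) on either strand, and no marked pair overlaps.
Dlat, chr9:50659731-50660030, minus strand: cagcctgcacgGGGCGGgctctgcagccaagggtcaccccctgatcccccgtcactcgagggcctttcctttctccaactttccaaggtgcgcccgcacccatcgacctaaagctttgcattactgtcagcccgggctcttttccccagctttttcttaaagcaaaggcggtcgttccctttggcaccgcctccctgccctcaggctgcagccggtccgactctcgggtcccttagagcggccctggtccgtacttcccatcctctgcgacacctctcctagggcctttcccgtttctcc
Suclg1, chr6:73248255-73248554, plus strand: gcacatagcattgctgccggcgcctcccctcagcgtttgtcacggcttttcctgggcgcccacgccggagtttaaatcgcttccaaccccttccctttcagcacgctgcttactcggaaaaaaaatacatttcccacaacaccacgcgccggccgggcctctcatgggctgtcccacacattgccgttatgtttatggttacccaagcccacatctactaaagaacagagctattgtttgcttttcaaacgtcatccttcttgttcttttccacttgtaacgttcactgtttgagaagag
Fh1, chr1:175625586-175625885, minus strand: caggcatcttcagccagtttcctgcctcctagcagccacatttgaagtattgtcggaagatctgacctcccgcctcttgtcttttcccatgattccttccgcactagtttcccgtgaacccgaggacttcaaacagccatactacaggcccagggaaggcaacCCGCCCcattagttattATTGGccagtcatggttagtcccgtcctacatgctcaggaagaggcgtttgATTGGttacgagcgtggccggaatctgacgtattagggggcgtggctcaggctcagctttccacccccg
Cs, chr10:128337477-128337776, plus strand: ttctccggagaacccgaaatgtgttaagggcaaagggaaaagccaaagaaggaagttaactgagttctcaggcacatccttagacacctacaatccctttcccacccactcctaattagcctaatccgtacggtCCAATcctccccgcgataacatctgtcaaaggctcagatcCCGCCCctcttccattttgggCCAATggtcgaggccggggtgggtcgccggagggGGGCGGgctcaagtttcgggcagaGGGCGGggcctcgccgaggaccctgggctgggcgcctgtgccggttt

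Windows were at hand for 8 of the 9 genes. A GC box was found in 6 of these 8 genes (Dlat, Cs, Ogdh, Sucla2, Fh1 and Mdh2), against 35.7% of all 32851 windows. A CCAAT box was found in 3 (Cs, Ogdh and Fh1), against 37.4% of all windows. An NRF1 half-site (TGCGCA) was present in Ogdh and Mdh2 (7.76% of all windows), an ETS core (CCGGAA) in Fh1 (14.9%) and an E-box (CACGTG) in Ogdh (7.15%). Ogdh had 6 windows, from alternative starts, and was counted once if any of them held the letters. Of the 4 genes printed, Cs held 3 GC boxes and 2 CCAAT boxes, Fh1 held 1 and 2, Dlat held 1 GC box, and Suclg1 held neither motif. Genes that fell and the gene that rose therefore both included windows with these letters. The windows of the 8 genes had GC contents from 49.3% (an Ogdh start) to 72.3% (another Ogdh start), beside a median of 52.7% over all windows.

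Stimulation raised some steps of this pathway and lowered others. Compared with unstimulated B cells, LPS raised 5 of the 9 genes (Idh3a, Ogdh, Dlat, Mdh2 and Sucla2) and lowered 3 (Fh1, Cs and Suclg1), whereas Pdha1 did not pass the test (quasi-likelihood test of edgeR, 4 libraries a group, threshold of 0.05 on the adjusted p). Among all 14477 genes tested with LPS, 29.6% were higher and 33.3% were lower. IL-4+anti-CD40 raised 4 (Idh3a, Dlat, Ogdh and Mdh2) and lowered 1 (Fh1), beside 30.4% higher and 32.1% lower of all 14433 genes tested. The median log2 fold change of the 9 genes was 0.21 with LPS, against -0.05 for all genes tested, and for IL-4+anti-CD40 it was 0.18, against -0.04. Both comparisons share the unstimulated libraries.

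DSF lowered most of the 9 genes under either stimulus. With LPS, DSF lowered 7 of the 9 genes (Idh3a, Fh1, Suclg1, Sucla2, Dlat, Mdh2 and Ogdh) and raised 2 (Cs and Pdha1). Of all 14154 genes tested there, 36% were lower and 35.1% were higher. With IL-4+anti-CD40, DSF lowered those same 7 and raised 1 (Cs), beside 31.6% lower and 30.1% higher of all 14275 genes tested. The median log2 fold change of the 9 genes was -0.64 with LPS, against 0.0019 for all genes tested, and for IL-4+anti-CD40 it was -0.43, against -0.02.

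Different scalings of the libraries gave different centres for these comparisons. With trimmed mean (TMM) scaling, used throughout, the median of all genes lay near 0, whereas scaling by total counts placed it at -0.27 for LPS, -0.19 for IL-4+anti-CD40, -0.21 for DSF with LPS and -0.16 for DSF with IL-4+anti-CD40. The share of higher genes among all calls went from 47.1% to 31.2% for LPS, from 48.6% to 38.3% for IL-4+anti-CD40, from 49.4% to 34.2% for DSF with LPS and from 48.8% to 35.9% for DSF with IL-4+anti-CD40. All changes below are relative to the TMM centre. Among the 9 genes, the sign of a called change depended on this choice for Sucla2 with LPS and for Pdha1 with DSF and LPS. In bulk RNA, fewer cells carrying a transcript and less of it per cell cannot be told apart. Groups whose ranges did not overlap were common among all genes tested. With LPS 29.5% lay wholly higher and 31.4% wholly lower, and with IL-4+anti-CD40 27.8% and 32.3%. With DSF the shares were 30.3% and 33.8% under LPS, and 30.6% and 26.5% under IL-4+anti-CD40.

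**Figure D1:**
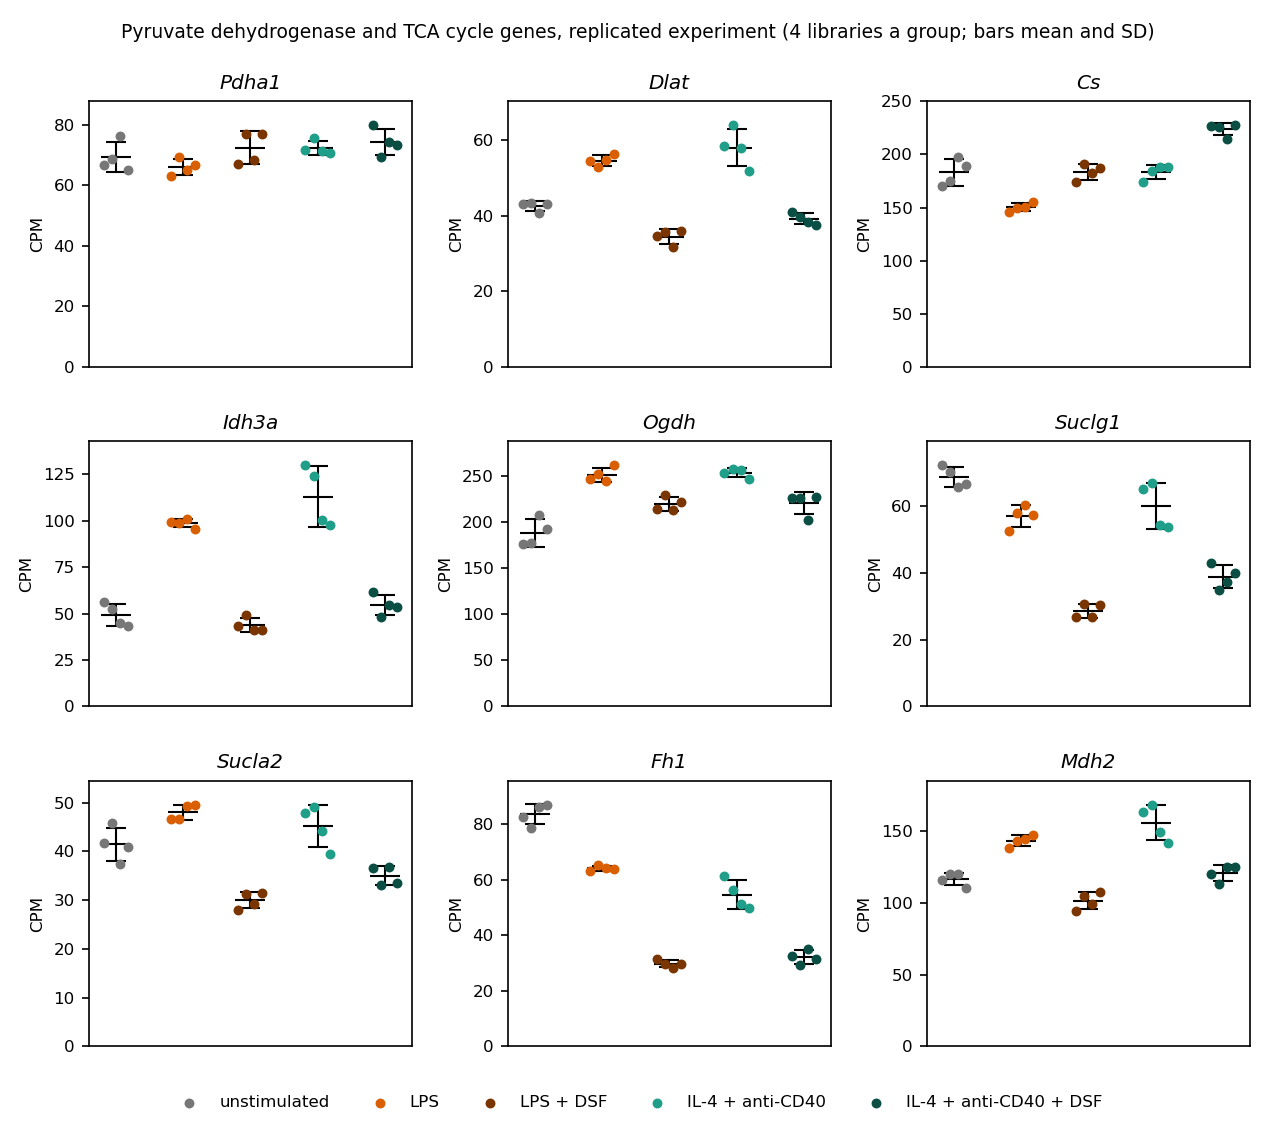
Level of each of the 9 genes (y axis, counts scaled to library size as CPM, from 0) in every library of the first experiment, with the 5 groups side by side and coloured as in the legend; points are libraries and bars give mean and SD of 4. Idh3a, Suclg1, Sucla2, Fh1, Dlat and Mdh2 drop from the stimulated group to the group with DSF, Cs goes up, and Pdha1 stays between 62.9 and 79.7 CPM.

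Pdha1 encodes the catalytic alpha subunit of the pyruvate dehydrogenase component, the part that phosphorylation switches off. It lies on the minus strand of chromosome X (chrX:160122209-160138413, mm10) and its longest coding transcript has 11 exons. In unstimulated B cells it was at 66.5, 68.7, 76.3 and 65.1 CPM, scaled over all 20 libraries. LPS gave 62.9, 69.2, 64.8 and 66.5 CPM, and IL-4+anti-CD40 gave 71.7, 75.6, 71.2 and 70.7 CPM. These groups overlapped, with log2 fold changes of -0.07 (SE 0.065, adjusted p = 0.379) for LPS and 0.12 (SE 0.072, adjusted p = 0.184) for IL-4+anti-CD40. The 95% intervals ran from -0.22 to 0.08 and from -0.05 to 0.28. Scaled by total counts, Pdha1 had a log2 fold change of -0.29 with LPS (adjusted p = 0.00301). With LPS and DSF the libraries stood at 67.0, 77.0, 68.4 and 77.0 CPM, 2 of which lay within the range of LPS alone. The log2 fold change was 0.15 (SE 0.051, adjusted p = 0.0103), which went to -0.056 with total counts (adjusted p = 0.315). Leaving out LPS replicate 1 or 3, or LPS with DSF replicate 2 or 4, gave 0.11 to 0.12 with adjusted p from 0.0676 to 0.0985. With IL-4+anti-CD40 and DSF the levels were 79.7, 69.4, 74.3 and 73.3 CPM, and the log2 fold change was -0.02 (95% interval -0.15 to 0.10), or -0.17 with total counts (adjusted p = 0.0189). Its means over groups spanned 1.13-fold, from 65.9 ± 2.68 CPM with LPS to 74.2 ± 4.25 CPM (SD, n = 4) with IL-4+anti-CD40 and DSF, and no neighbours in that order were apart. The exons of Pdha1 share 603 bases with Map3k15 on the opposite strand, whose median count was 65 beside 1506.5 for Pdha1. No strand setting was named in the sources used here, so reads from those bases cannot be assigned to either gene with certainty.

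Dlat encodes the lipoylated acetyltransferase core of the same complex. Its locus is on the minus strand of chromosome 9 (chr9:50634633-50659780, mm10) and its coding transcript has 14 exons. Unstimulated B cells had 43.0, 43.5, 40.7 and 43.2 CPM. LPS gave 54.5, 52.8, 54.6 and 56.3 CPM and IL-4+anti-CD40 gave 58.5, 63.9, 57.8 and 51.8 CPM, all above every unstimulated library. On the log2 scale the changes were 0.36 (SE 0.051, adjusted p = 0.000348) and 0.50 (SE 0.086, adjusted p = 0.00087). With total counts the change with LPS was 0.13 and no longer passed the test (adjusted p = 0.0794). DSF took Dlat to 34.6, 35.6, 31.8 and 35.9 CPM with LPS and to 41.0, 39.6, 38.3 and 37.6 CPM with IL-4+anti-CD40. The libraries with DSF were all below those with the stimulus alone, and those with LPS and DSF were also all below the unstimulated ones. The log2 fold changes with DSF were -0.64 (SE 0.055, adjusted p = 1.25e-10) and -0.63 (SE 0.072, adjusted p = 1.94e-05), that is, ratios of 0.64 and 0.646.

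Cs encodes citrate synthase, the enzyme of the first committed step of the cycle. It lies on the plus strand of chromosome 10 (chr10:128337734-128362479, mm10), with 11 exons. The libraries had 170.0, 175, 198 and 189 CPM in unstimulated B cells, 146, 149, 150.2 and 155 CPM with LPS, and 174, 185, 188 and 188 CPM with IL-4+anti-CD40. The LPS group lay wholly below the other groups. The log2 fold change with LPS was -0.28 (SE 0.067, adjusted p = 0.00522), whereas it was 0.06 with IL-4+anti-CD40 (95% interval -0.11 to 0.22, adjusted p = 0.51). Opposite to most of its neighbours in the pathway, Cs went up with DSF, to 174, 191, 183 and 188 CPM with LPS and to 227, 226, 215 and 227 CPM with IL-4+anti-CD40. The groups did not overlap under either stimulus. The log2 fold changes were 0.31 (SE 0.040, adjusted p = 1.84e-07) and 0.22 (SE 0.045, adjusted p = 0.00106), and the latter was 0.076 with total counts (adjusted p = 0.183). Neither passed against a minimum of 1.2-fold (adjusted p = 0.0812 and 0.716). Its related gene Csl had at most 1 count in a library.

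Idh3a encodes the catalytic subunit of the NAD-dependent isocitrate dehydrogenase, the step that makes 2-oxoglutarate. It maps to the plus strand of chromosome 9 (chr9:54586334-54604661, mm10), with 11 exons in its longest coding transcript. Its log2 fold change was larger in size than those of the other 8 genes in each of the 4 comparisons. Unstimulated B cells had 56.1, 52.6, 44.7 and 43.5 CPM, LPS gave 99.4, 98.8, 101 and 95.6 CPM, and IL-4+anti-CD40 gave 130.0, 124, 100.5 and 97.6 CPM. Each stimulated library was above each unstimulated one, and the 4 libraries with IL-4+anti-CD40 were the more widely spread. Fold changes (log2) were 1.01 (SE 0.085, adjusted p = 1.68e-05), or 2.01-fold, with LPS and 1.26 (SE 0.132, adjusted p = 5.3e-05), or 2.39-fold, with IL-4+anti-CD40. With DSF the levels were 43.3, 49.1, 41.3 and 41.4 CPM under LPS and 61.7, 48.3, 54.7 and 53.6 CPM under IL-4+anti-CD40. These ranges overlapped that of unstimulated B cells. The log2 fold changes of DSF were -1.16 (SE 0.052, adjusted p = 4.63e-16) and -1.11 (SE 0.108, adjusted p = 6.56e-06), ratios of 0.449 and 0.462.

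Ogdh encodes the dehydrogenase component of the 2-oxoglutarate dehydrogenase complex, which forms succinyl-CoA. It lies on the plus strand of chromosome 11 (chr11:6291633-6356642, mm10), with up to 24 exons. Its libraries had 176, 177, 207 and 192 CPM when unstimulated, 246, 252, 245 and 262 CPM with LPS, and 253, 258, 257 and 247 CPM with IL-4+anti-CD40. The stimulated groups lay above the unstimulated one, with log2 fold changes of 0.42 (SE 0.072, adjusted p = 0.000927) and 0.48 (SE 0.078, adjusted p = 0.000582). DSF gave 214, 229.8, 213 and 222 CPM under LPS and 226, 226, 203 and 227 CPM under IL-4+anti-CD40, below the stimulated groups in every library. The fall was small, at -0.18 (SE 0.040, adjusted p = 0.000322) and -0.26 (SE 0.051, adjusted p = 0.000916) on the log2 scale. Tested against a minimum of 1.2-fold, neither passed (adjusted p = 1.00 and 0.399). Ogdhl, its paralog, had a median of 5 counts beside 4667.5 for Ogdh.

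Suclg1 encodes the alpha subunit that both forms of succinyl-CoA ligase share, the enzyme that yields ATP or GTP in the cycle. The gene is on the plus strand of chromosome 6 (chr6:73248382-73276911, mm10), with 9 exons. Unstimulated B cells had 72.2, 70.3, 65.7 and 66.5 CPM, LPS gave 52.5, 57.9, 60.4 and 57.2 CPM, and IL-4+anti-CD40 gave 65.2, 66.8, 54.2 and 53.7 CPM. Suclg1 was lower with LPS (log2 fold change -0.27, SE 0.061, adjusted p = 0.00467), whereas the groups overlapped with IL-4+anti-CD40 (log2 fold change -0.14, 95% interval -0.36 to 0.09), where it was -0.29 with total counts (adjusted p = 0.0269). With DSF it stood at 26.9, 30.6, 26.7 and 30.3 CPM under LPS and at 42.9, 35.0, 37.2 and 40.0 CPM under IL-4+anti-CD40. Every library with DSF was below every library of the stimulated and unstimulated groups. The log2 fold changes were -0.98 (SE 0.061, adjusted p = 3.12e-13) and -0.69 (SE 0.095, adjusted p = 7.07e-05), ratios of 0.509 and 0.62.

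Sucla2 encodes the beta subunit of the ATP-forming succinyl-CoA ligase. It lies on the plus strand of chromosome 14 (chr14:73525319-73596142, mm10), with up to 12 exons in a coding transcript. The libraries had 41.7, 45.8, 37.4 and 40.8 CPM when unstimulated, 46.7, 46.7, 49.2 and 49.5 CPM with LPS, and 47.9, 49.2, 44.1 and 39.5 CPM with IL-4+anti-CD40. Whether Sucla2 rose with LPS depended on the scaling and on single libraries. Its log2 fold change was 0.21 (SE 0.070, adjusted p = 0.0238), it went to -0.014 with total counts (adjusted p = 0.89), and it missed the threshold without LPS replicate 3 or 4 (adjusted p = 0.0548 and 0.0599). The log2 fold change with IL-4+anti-CD40 was 0.18 (95% interval -0.05 to 0.41), and without IL-4+anti-CD40 replicate 4 it was 0.26 (adjusted p = 0.0451). DSF gave 28.004, 31.3, 29.2 and 31.4 CPM under LPS and 36.5, 33.0, 36.8 and 33.5 CPM under IL-4+anti-CD40. Those levels were below all libraries of the unstimulated and stimulated groups. On the log2 scale the changes were -0.66 (SE 0.057, adjusted p = 1.75e-10) and -0.43 (SE 0.081, adjusted p = 0.000711).

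Fh1 encodes fumarate hydratase, which makes malate and also acts in the cytosol. It is found on the minus strand of chromosome 1 (chr1:175600374-175625635, mm10), with up to 10 exons in a coding transcript. Fh1 was highest in unstimulated B cells, at 82.8, 78.8, 86.2 and 87.0 CPM. LPS gave 63.2, 65.4, 64.4 and 63.8 CPM, and IL-4+anti-CD40 gave 61.2, 56.2, 51.2 and 49.8 CPM. The ranges of these 3 groups did not meet. The log2 fold changes were -0.38 (SE 0.055, adjusted p = 0.000347) and -0.56 (SE 0.090, adjusted p = 0.000596). With DSF it was lower still, at 31.4, 29.7, 28.3 and 29.5 CPM under LPS and at 32.6, 29.2, 35.1 and 31.5 CPM under IL-4+anti-CD40. The log2 fold changes with DSF were -1.09 (SE 0.054, adjusted p = 2.48e-15) and -0.83 (SE 0.085, adjusted p = 9.04e-06), ratios of 0.47 and 0.563. Between unstimulated B cells (83.7 ± 3.72 CPM) and LPS with DSF (29.7 ± 1.26 CPM; SD, n = 4 each) the means differed 2.81-fold, a span above that of the other 8 genes. Kmo lies across Fh1 on the opposite strand without shared exon bases.

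Mdh2 encodes mitochondrial malate dehydrogenase, which regenerates oxaloacetate and serves the malate-aspartate shuttle. It lies on the plus strand of chromosome 5 (chr5:135778480-135790398, mm10), with 9 exons. Levels were 116, 120.0, 120.1 and 111 CPM in unstimulated B cells, 139, 143, 145 and 148 CPM with LPS, and 164, 168, 150 and 142 CPM with IL-4+anti-CD40. The stimulated libraries were all above the unstimulated ones. Fold changes (log2) were 0.30 (SE 0.053, adjusted p = 0.00107) and 0.47 (SE 0.082, adjusted p = 0.000887), and the former was 0.07 with total counts (adjusted p = 0.304). In the presence of DSF the levels were 94.6, 105, 99.2 and 108 CPM under LPS and 120.4, 114, 125 and 125 CPM under IL-4+anti-CD40. Those with LPS and DSF were below every unstimulated library, whereas those with IL-4+anti-CD40 and DSF overlapped the unstimulated range. With DSF the log2 fold changes were -0.48 (SE 0.043, adjusted p = 3.23e-10) and -0.43 (SE 0.065, adjusted p = 0.000164).

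**Figure D2:**
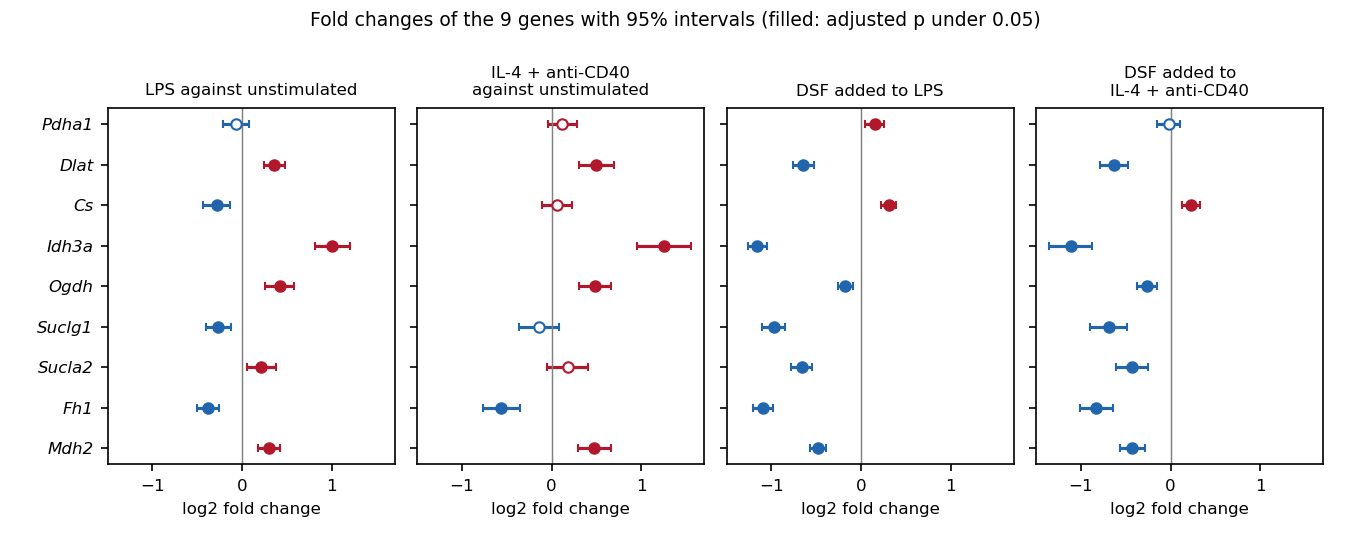
Log2 fold changes (x axis) of the 9 genes (y axis) in the 4 comparisons of the first experiment, with 95% intervals from edgeR; red is higher, blue is lower, and filled points passed an adjusted p of 0.05. With DSF, 7 genes lie left of 0 in both panels, from -1.16 (Idh3a) to -0.18 (Ogdh) with LPS and from -1.11 (Idh3a) to -0.26 (Ogdh) with IL-4+anti-CD40, and Cs lies right of 0 in both.

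Whether DSF acted differently under the 2 stimuli was tested with an interaction term over 16 libraries. By edgeR none of the 9 genes passed (0 called), while 4 had an unadjusted p under 0.05, and DESeq2 called 1 (Fh1, adjusted p = 0.0375). Of all 15130 genes tested 6.96% were called higher and 7.92% lower in IL-4+anti-CD40 than in LPS, and with total counts the share of higher genes among calls went from 46.8% to 63.3%. The effect of DSF on Fh1 was less negative with IL-4+anti-CD40 by 0.27 (95% interval 0.07 to 0.47, adjusted p = 0.0703). The corresponding differences were 0.29 (0.04 to 0.54, adjusted p = 0.11) for Suclg1 and 0.23 (0.03 to 0.44, adjusted p = 0.121) for Sucla2. For Idh3a the difference was 0.05 (-0.22 to 0.32) and for Dlat 0.02 (-0.17 to 0.21). Pdha1 went the other way, with the lowest difference of the 9 (-0.17, and from -0.22 to -0.11 over 23 alternatives). Cs and Ogdh also had negative differences in all 23. With total counts Fh1, Suclg1 and Sucla2 passed (adjusted p = 0.0285, 0.0445 and 0.0429), so a difference for these 3 genes depended on the scaling. Fh1 also passed without IL-4+anti-CD40 replicate 1 (adjusted p = 0.0158) or IL-4+anti-CD40 with DSF replicate 2 (adjusted p = 0.0455), and Suclg1 without IL-4+anti-CD40 replicate 2 (adjusted p = 0.0436). Among the other genes of the pathway, the effect of DSF was called less negative with IL-4+anti-CD40 for Sdhc (0.38), Sdha (0.24), Mpc2 (0.45) and Mdh1, the cytosolic malate dehydrogenase (0.44), and lower for Idh3b (-0.19) and Dlst (-0.18). Against a minimum of 1.2-fold none of these 6 passed, and the calls of Sdha, Mpc2, Idh3b and Dlst were lost when any of several single libraries was left out.

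FPKM divides by a measure of depth and by the length of a gene's exons merged over all its annotated transcripts. Ranks between genes depend on that length, which can exceed the length of the transcripts present. On this measure Ogdh had the highest mean of the 9 genes in each group. Its means ran from 34.1 ± 2.49 FPKM in unstimulated B cells to 47.0 ± 1.52 FPKM with IL-4+anti-CD40 (SD, n = 4). Mdh2 (32.4 ± 1.49) and Cs (31.3 ± 1.97) came next in unstimulated B cells, and their ranges overlapped with each other and with Ogdh. Fh1 was the fourth in that group, at 24.4 ± 0.885 FPKM, apart from Pdha1 below it at 18.3 ± 1.35 FPKM. Dlat had the lowest mean there, at 8.63 ± 0.290 FPKM, and overlapped with Idh3a at 9.61 ± 1.28 FPKM. Idh3a moved from that low place to 19.1 ± 0.442 FPKM with LPS, where its range overlapped that of Fh1 at 18.6 ± 0.285 FPKM. With LPS and DSF, Cs (31.2 ± 1.07) stood above Mdh2 (27.97 ± 1.41), the reverse of the order with LPS alone, and in both cases the ranges were apart. Suclg1 had the lowest mean with LPS and DSF, at 6.07 ± 0.404 FPKM, and overlapped with Dlat at 6.91 ± 0.349 FPKM. The order of the 5 groups by FPKM was that by CPM for 7 of the 9 genes. It was not for Pdha1 and Cs, where neighbouring groups overlapped. Mean FPKM of Sucla2 was 10.3 when unstimulated and 11.8 with LPS, where total counts gave a log2 fold change of -0.014. For Pdha1 it was 17.3 with LPS and 19.0 with LPS and DSF, where total counts gave -0.056. The deposited FPKM thus did not follow scaling by total counts, so the shared order is no check of the TMM scaling.

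The subunits of a complex did not keep a fixed ratio at the RNA level. The Dlat:Pdha1 ratio of FPKM was 0.49, 0.48, 0.41 and 0.51 in the unstimulated libraries. LPS gave 0.66, 0.58, 0.64 and 0.65, while IL-4+anti-CD40 gave 0.62, 0.65, 0.62 and 0.56, above all unstimulated values. With DSF it was 0.39, 0.35, 0.36 and 0.36 under LPS and 0.39, 0.44, 0.39 and 0.39 under IL-4+anti-CD40, below the stimulus alone in all libraries. Each of these 4 differences had p = 0.0286 in a two-sided exact permutation test of the log2 ratios, the smallest p that 4 against 4 libraries allow, and an adjusted p of 0.0381 over 8 tests. The mean log2 ratio was higher by 0.43 (LPS) and 0.38 (IL-4+anti-CD40), and differed by -0.80 and -0.60 when DSF was added.

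Suclg1 pairs with either of the beta subunits, Sucla2 (ATP-forming) or Suclg2 (GTP-forming). The Sucla2:Suclg2 ratio was 1.24, 1.55, 1.18 and 1.30 in unstimulated B cells, 1.45, 1.499, 1.49 and 1.54 when LPS was given, and 1.19, 1.24, 1.45 and 1.42 with IL-4+anti-CD40. These groups overlapped (exact permutation p = 0.143 and 0.943). DSF gave 2.03, 1.64, 2.03 and 2.06 under LPS and 2.03, 1.76, 2.16 and 1.97 under IL-4+anti-CD40, all above the libraries of the stimulus alone. The mean log2 ratio was higher by 0.37 and by 0.58 with DSF (exact permutation p = 0.0286 for each, adjusted p = 0.0381). Suclg2 had log2 fold changes of -1.02 and -1.03 with DSF, beside -0.66 and -0.43 for Sucla2.

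**Figure D3:**
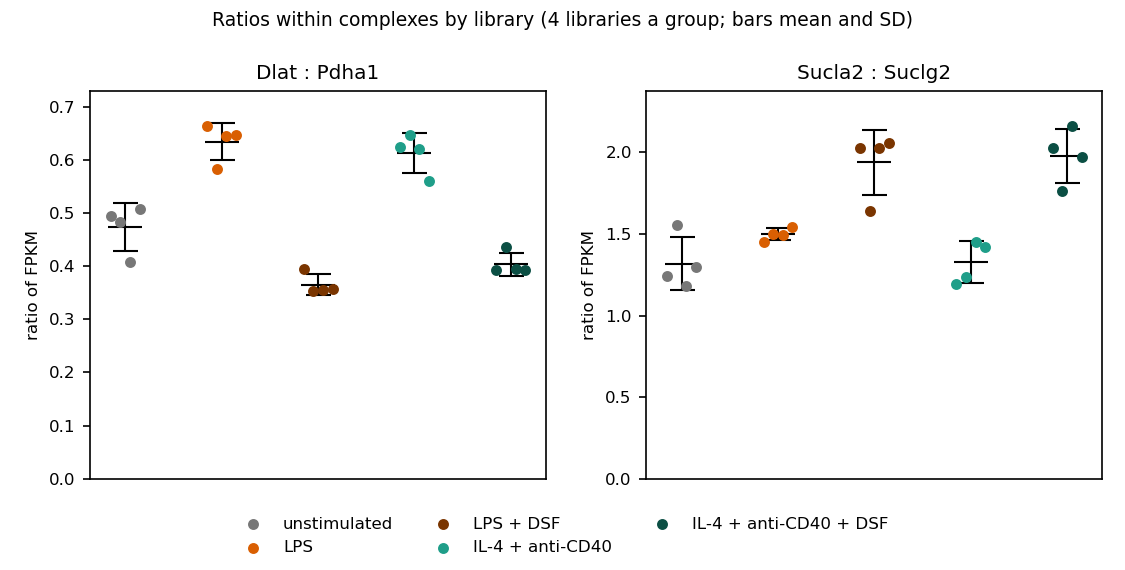
Ratio of FPKM within each library (y axis, from 0) for Dlat over Pdha1 and for Sucla2 over Suclg2 in the 5 groups of the first experiment; points are libraries and bars give mean and SD of 4. Dlat:Pdha1 goes from a mean of 0.634 with LPS to 0.365 with LPS and DSF, and Sucla2:Suclg2 from 1.497 to 1.94.

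Other subunits of the same complexes had smaller median changes with DSF than the 9 genes. Of 12 such genes, LPS raised 3 (Dlst, 0.64; Dld, 0.45; Pdhx, 0.32; log2 fold changes) and lowered 3 (Idh3g, -0.28; Sdha, -0.21; Sdhc, -0.19). IL-4+anti-CD40 raised 7, led by Pdhx (0.85), Dlst (0.72) and Dld (0.49), and lowered Sdha (-0.31). Dld is the dihydrolipoamide dehydrogenase shared by these complexes, Dlst the lipoylated succinyltransferase beside Ogdh, and Sdha and Sdhc belong to succinate dehydrogenase. DSF with LPS lowered 8, led by Suclg2 (-1.02), Sdhc (-0.89) and Sdha (-0.63), and raised 2 (Idh3b and Dlst, 0.15 each). The rises of Idh3b and Dlst turned to -0.054 each with total counts. DSF with IL-4+anti-CD40 lowered 5, led by Suclg2 (-1.03) and Sdhc (-0.52), and raised none, and 7 were not called. Of all genes tested there, 31.6% were lower and 30.1% higher. Medians over these genes were 0.10 with LPS, 0.28 with IL-4+anti-CD40, and -0.21 and -0.14 when DSF was added to either. On the TMM scale the 3 subunits of isocitrate dehydrogenase differed under DSF with LPS. Idh3a fell (-1.16), Idh3g fell (-0.13, adjusted p = 0.0252), and Idh3b rose (0.15, adjusted p = 0.00343). In the single libraries of the second experiment no rise of Idh3b was seen. The log2 ratios with LPS and DSF there were -2.33 for Idh3a, -0.75 for Idh3g and -0.19 for Idh3b, and -0.05 for Dlst.

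Pyruvate entry and control of pyruvate dehydrogenase were covered by 10 genes, of which Pdk4 was at 0 counts in all libraries of the first experiment and was not tested. The kinases Pdk1 and Pdk2, which inactivate Pdha1 protein by phosphorylation, fell with LPS (-1.23 and -2.34) as well as IL-4+anti-CD40 (-1.50 and -2.61). The phosphatase subunits Pdp1 and Pdp2, which reverse it, rose with LPS (1.00 and 0.67) as well as IL-4+anti-CD40 (0.46 and 0.83). With LPS the list had 4 higher (also Mpc1, a pyruvate carrier subunit, 0.57, and Pdk3, a further kinase, 0.26) and 3 lower genes (also Pdpr, -0.34), and with IL-4+anti-CD40 2 higher and 2 lower. DSF with LPS lowered 8 of the 9 tested, led by Pdk1 (-1.64), Pdk2 (-1.22) and Mpc2, the other carrier subunit (-0.86), and raised Pcx, pyruvate carboxylase (0.66, adjusted p = 0.0487). DSF with IL-4+anti-CD40 lowered 6, led by Pdk1 (-1.44), Pdk2 (-0.94) and Pdp2 (-0.65), and raised none. Pdk3 thus did not follow Pdk1 and Pdk2 with LPS (adjusted p = 0.0322, and not passing with total counts), and with IL-4+anti-CD40 it had a log2 fold change of -0.33 (adjusted p = 0.0681). The counts of Pdk2 were few with DSF, from 7 to 22 a library with LPS.

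Cytosolic or NADP-dependent counterparts and shuttles (12 genes) were lower with the stimuli more often than higher: 7 lower and 1 higher of 11 tested with LPS, compared with 5 and 1 for IL-4+anti-CD40. Idh1 and Idh2, the NADP-dependent isocitrate dehydrogenases, fell with LPS (-1.07 and -1.57) as well as IL-4+anti-CD40 (-1.36 and -1.47), opposite to Idh3a. Slc25a11, the 2-oxoglutarate carrier, fell too (-1.01 and -0.98), whereas Slc25a1, the citrate carrier, rose (0.84 and 1.19). DSF lowered 10 of 12 with LPS, led by Slc25a1 (-1.32), Idh2 (-0.999) and the cytosolic aconitase Aco1 (-0.79). With IL-4+anti-CD40 it lowered 8, led by Slc25a1 (-1.32), Aco1 (-0.89) and Idh2 (-0.74). The fall of Idh2 was not seen in the single libraries of the second experiment. Its log2 ratios with DSF were 0.05 under LPS and -0.13 under IL-4+anti-CD40. Those of Slc25a1 were -2.10 and -2.38, and those of Aco1 were -1.02 and -1.28. Higher with DSF were Me1, cytosolic malic enzyme, under both stimuli, and Idh1 with IL-4+anti-CD40 (0.51). Me1 had 0 to 3 counts a library with LPS and 15 to 26 with LPS and DSF, and 1 to 8 with IL-4+anti-CD40 and 27 to 34 with DSF added.

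The 6 genes listed for lipoylation held more genes that rose than fell with the stimuli, and more that fell than rose with DSF. LPS raised 4, led by Lipt2 (1.48), Gcsh (1.27) and Lipt1 (1.17), and IL-4+anti-CD40 raised 4, led by Gcsh (1.71), Lipt2 (1.36) and Dbt (0.45). Lipt1 and Lipt2 are transferases that act in lipoylation, Gcsh is the lipoylated protein of glycine cleavage, and Dbt is the lipoylated core of the branched-chain complex. DSF lowered 5 and raised none under either stimulus, led by Lipt2 (-1.45), Dbt (-1.41) and Gcsh (-0.91) with LPS and by Dbt (-1.42), Lipt2 (-1.22) and Lipt1 (-1.20) with IL-4+anti-CD40. Over these genes the median was 0.70 and 0.40 with the stimuli and -0.85 and -1.12 with DSF.

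**Figure D4:**
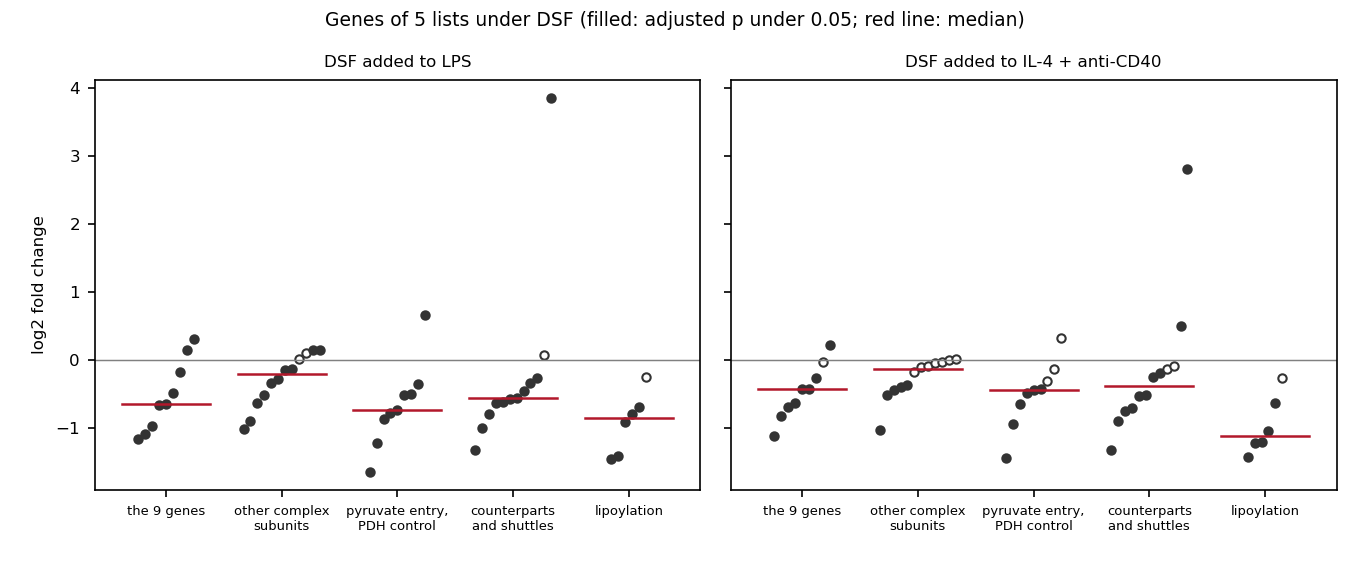
Log2 fold change with DSF (y axis) of every tested gene in the 9-gene set and in the 4 other lists (x axis), with LPS on the left and IL-4+anti-CD40 on the right; filled points passed an adjusted p of 0.05 and the red line is the median of a list. The medians run from -0.21 (other complex subunits) to -0.85 (lipoylation) with LPS, and the point above 3 is Me1.

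The second experiment gave each condition a single library, so the ratios below have no replicate check and no test, and a ratio of 1.5-fold or more was counted. Idh3a was at 52.1 CPM in unstimulated B cells, 109 CPM with LPS and 122 CPM with IL-4+anti-CD40, and at 21.5 and 23.9 CPM when DSF was added. Fh1 was at 75.0, 65.7 and 61.6 CPM, and at 21.1 and 18.8 CPM with DSF. Dlat was at 43.5, 52.0 and 60.4 CPM, and at 18.9 and 13.9 CPM with DSF. For all 3 genes the libraries with DSF were the lowest of the 7. Cs stayed between 159 and 209 CPM and Pdha1 between 62.4 and 72.8 CPM over the 7 libraries.

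DSF lowered 7 of the 9 genes by 1.5-fold or more with LPS in that experiment, and raised none, beside 31.6% lower and 30.1% higher of all 14275 genes. With IL-4+anti-CD40, DSF also lowered 7 and raised none, beside 31.6% and 32%. The 7 were Idh3a, Dlat, Fh1, Sucla2, Suclg1, Mdh2 and Ogdh under both stimuli, the genes called lower in the first experiment. The log2 ratios with LPS were -2.33 for Idh3a (95% counting interval -2.50 to -2.18), -1.63 for Fh1, -1.51 for Sucla2, -1.45 for both Dlat and Suclg1, -1.17 for Mdh2 and -0.63 for Ogdh. The log2 ratios with IL-4+anti-CD40 were -2.34 for Idh3a, -2.11 for Dlat, -1.71 for Fh1, -1.38 for Mdh2, -1.34 for Sucla2, -1.29 for Suclg1 and -0.998 for Ogdh. Intervals cover counting error only. For each of the 7 the size of the log2 ratio was above that of the log2 fold change in the first experiment, and this difference between experiments was not tested. Cs had log2 ratios of 0.13 and 0.12, and Pdha1 of -0.17 and 0.14.

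Ibrutinib moved none of the 9 genes by 1.5-fold under either stimulus (0 of 9), where it moved 8.15% of all genes up and 7.55% down with LPS, and 7.22% up and 5.88% down with IL-4+anti-CD40. The log2 ratios ran from -0.37 (Idh3a) to 0.0021 (Ogdh) with LPS and from -0.29 (Idh3a) to 0.10 (Fh1) with IL-4+anti-CD40. At the same 1 μM and the same 3 h, Idh3a was thus at 83.9 CPM with LPS and ibrutinib and at 21.5 CPM with LPS and DSF, beside 109 CPM without inhibitor. With 1 library each, how far DSF and ibrutinib differ beyond replicate error cannot be stated.

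**Figure D5:**
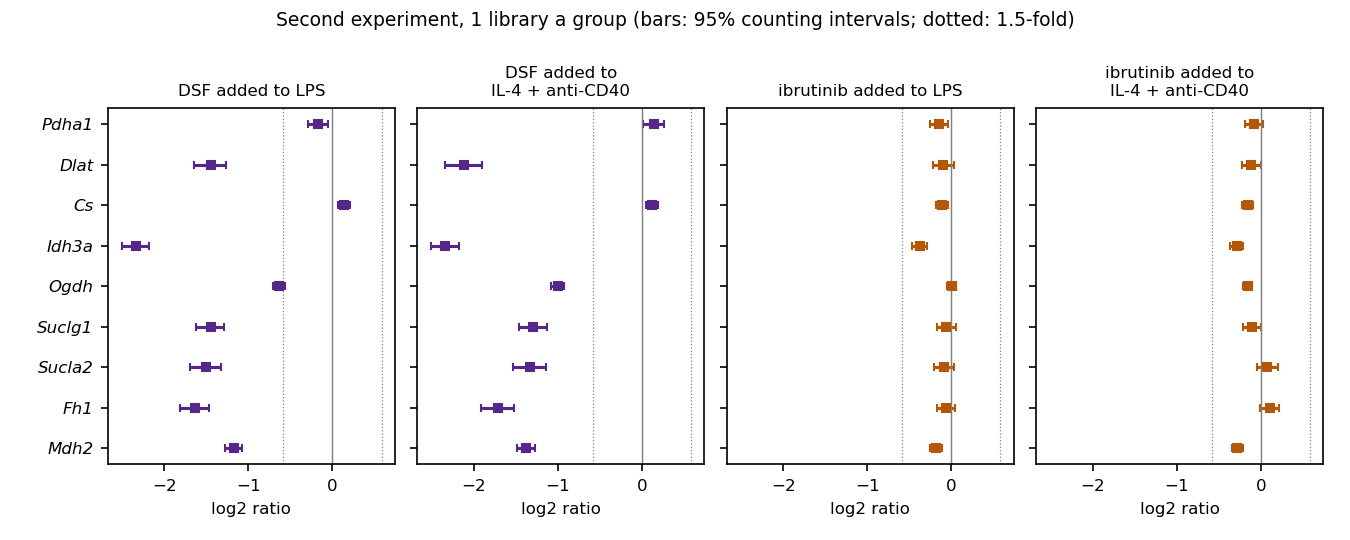
Log2 ratio to the same stimulus without inhibitor (x axis) of the 9 genes (y axis) in the second experiment, 1 library a group, for 1 μM DSF and 1 μM ibrutinib; bars are 95% counting intervals and dotted lines mark 1.5-fold. The 7 genes left of the dotted line with DSF run to -2.34, whereas all points with ibrutinib lie between the dotted lines.

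The stimuli alone moved the 9 genes in the second experiment as follows. LPS moved 1 of 9 up by 1.5-fold or more (Idh3a, log2 ratio 1.06) and none down, beside 18.4% up and 21.3% down of all genes. IL-4+anti-CD40 moved 3 up (Idh3a, 1.22; Mdh2, 0.60; Ogdh, 0.60) and none down, beside 21.5% and 24.8%. Fh1 had log2 ratios of -0.19 and -0.29. The Dlat:Pdha1 ratio of FPKM was 0.565 with LPS and 0.232 with LPS and DSF, and 0.698 with IL-4+anti-CD40 and 0.146 with DSF added. The Sucla2:Suclg2 ratio went from 1.13 to 1.69 when DSF was added to IL-4+anti-CD40, and from 1.70 to 1.32 when it was added to LPS, the opposite direction to the first experiment.

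The genes most like each of the 9 over the 5 group means of the first experiment were found by the root mean square (RMS) difference of centred log2 CPM among 15574 other genes. The nearest to Idh3a was Bcap29 (RMS 0.021), to Dlat Sbsn (0.020), to Sucla2 Brms1 (0.0067), to Fh1 Nubpl (0.036) and to Mdh2 Tkt (0.019). For Pdha1 it was Ncoa6 (0.024), for Cs Zkscan6 (0.028), for Ogdh Manbal (0.031) and for Suclg1 Asb7 (0.026). Among the 9 themselves, Dlat and Mdh2 were nearest to each other (RMS 0.087), and Cs and Fh1 were farthest apart (0.695). Each value rests on the 5 group means alone.

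Total counts were between 16049295 and 24619776 a library, and the 9 genes had between 196 and 6286 counts in each. The unstimulated libraries were the least alike, with a range of 2-fold or more for 25.5% of genes against 13.0% to 17.3% in the other groups. The 6 B cell markers were detected in every group, with summed levels from 3008 to 8316 CPM in the first experiment. They were lower with DSF: 4354 to 4455 CPM with LPS and 3008 to 3190 CPM with LPS and DSF, and 3899 to 4341 CPM with IL-4+anti-CD40 and 3159 to 3342 CPM with DSF added. The 6 myeloid markers summed to 542 to 658 CPM in the unstimulated libraries and to 149 to 195 CPM with either stimulus alone, so they move with the stimulation comparisons, and their part in the results was not tested. With DSF the myeloid sum was 165 to 174 CPM under LPS and 231 to 291 CPM under IL-4+anti-CD40. In the first experiment T cell markers summed to at most 9.61 CPM, NK cell markers to at most 5.37 CPM, erythroid markers to at most 13.4 CPM and neutrophil markers to at most 35.4 CPM, each with its highest library in the unstimulated group. In the second experiment the myeloid sum was 25.1 CPM with LPS and 77.1 CPM with LPS and DSF, and 28.7 and 72.7 CPM for IL-4+anti-CD40. The erythroid sum went from 26.2 to 67.0 CPM when DSF was added to LPS and from 23.8 to 57.2 CPM when it was added to IL-4+anti-CD40. The corresponding sums were 6.43 to 12.6 and 4.09 to 9.70 CPM for T cell markers, 2.25 to 5.72 and 1.58 to 3.75 CPM for NK cell markers, and 0.550 to 3.42 and 0.436 to 4.32 CPM for neutrophil markers. B cell markers went from 4609 to 3286 and from 4264 to 3472 CPM. The part of these markers in the ratios was not tested.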

How the data were processed

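RNA-seq was done on 27 libraries of splenic B cells (20 in the first experiment, 7 in the second). The authors used Fastp for trimming, featureCounts v1.5.0-p3 for counting per gene and, in between, HISAT2 v2.0.5 for alignment (mm10). The strand setting and annotation release were not given in the sources used here. The deposited counts are whole reads per gene without normalization, and the deposited FPKM were calculated by the authors from them.

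In the first experiment counts were tested with edgeR 4.0.16 in R 4.3.3 (quasi-likelihood, TMM, filterByExpr, 8 libraries a comparison, 16 for the interaction), with Benjamini-Hochberg adjustment over all genes tested and a threshold of 0.05. CPM were TMM-scaled over all 20 libraries, so small differences between their means and the fitted fold changes occur. Ratios of FPKM were compared with exact permutation tests, adjusted over 8. In the second experiment log2 ratios between libraries (prior count 2) were taken over genes averaging 10 counts or more, with 95% counting intervals built from exact binomial limits. Scripts were tested on simulated data. Positions in the files matched GENCODE vM21, and start-site windows came from RefSeq.

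The 9 genes, the 4 other lists and the marker lists were chosen with earlier results of these data known. From each other list at most 3 genes per direction and comparison were named, those with the largest log2 fold change among the called, and 1 gene that this rule would name is not reported here. Idh3g with DSF and LPS and Pdk3 fall outside that rule and were chosen after their values were seen. The single nearest of 3 genes was named for likeness. Alternatives were scaling by total counts or by DESeq2's size factors, DESeq2 1.42.0 itself, other filters, a minimum of 1.2-fold, all 20 libraries in one fit, a replicate block and leaving out each library.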

Additional observations from a re-analysis of the deposited data

Results flagged for a closer look

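The levels of the 9 genes in the 5 groups of the first experiment gave 45 sets of 4 libraries, and each was examined with Dixon's criterion at its 95% limit, which chance exceeds in about 1 of 20. In 3 of the 45, 1 library stood far from the other 3. Dlat was at 40.7 CPM in unstimulated replicate 3, whereas the others were between 43.0 and 43.5 CPM. Cs was at 215 CPM in replicate 3 of IL-4+anti-CD40 with DSF, whereas the others were between 226 and 227 CPM. Ogdh was at 203 CPM in that same library, whereas the others were between 226 and 227 CPM. Without that library the fold changes of Cs and Ogdh kept their direction and their call.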

How the results depend on the processing

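Idh3a, Fh1, Suclg1, Dlat, Sucla2 and Mdh2 were lower with DSF and past the threshold under both stimuli in all 16 alternatives run for each. With total counts the sign turned for Sucla2 with LPS (-0.014), for Pdha1 with DSF and LPS (-0.056), for Pdhb (-0.19) and Suclg2 (-0.20) with LPS, and for Idh3b (-0.054), Dlst (-0.054) and Sdhd (-0.20) with DSF and LPS. The signs of Cs (-0.089) and Pdha1 (-0.031) with IL-4+anti-CD40, called in neither fit, turned too. Total counts also gave 2 of the 9 genes higher with LPS, 2 lower with IL-4+anti-CD40, 1 and 0 higher with DSF under LPS and IL-4+anti-CD40, and 3 higher in the interaction. A minimum of 1.2-fold gave 3 higher and 1 lower with LPS, 0 higher with DSF under either stimulus, and 422 higher and 300 lower of all genes in the interaction. One fit over 20 libraries gave 2 lower with IL-4+anti-CD40 and 1 higher with DSF and LPS, and so did the filter of any count for the latter (1 higher). DESeq2 and its size factors each called 1 of the 9 in the interaction. Leaving out 1 library at a time gave 1 to 2 of the 9 higher with DSF and LPS and 0 to 1 higher in the interaction. The causes were not tested.

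In the second experiment total counts, means of at least 50 counts, or a 2-fold limit each gave 1 of the 9 higher with IL-4+anti-CD40. The 2-fold limit gave 1230 higher and 1411 lower of all genes with LPS, and 1531 and 1957 for IL-4+anti-CD40. With DSF it gave 2900 higher and 2785 lower under LPS, and 3133 and 2891 under IL-4+anti-CD40. With ibrutinib it gave 401 and 353 under LPS, and 318 and 241 under IL-4+anti-CD40. Ogdh, lower with DSF by 1.55-fold under LPS and 1.997-fold under IL-4+anti-CD40, did not reach that limit. With means of at least 50 counts the numbers with ibrutinib were 434 and 437, and 437 and 317. Both are stricter limits by construction.

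Same-numbered libraries did not deviate together (correlations of deviations from -0.056 to 0.17, and 7 of 32 libraries correlated best with their own number), so the numbers were not taken to pair libraries. With the replicate number as a block, Sucla2 with LPS had a log2 fold change of 0.22 and missed the threshold (adjusted p = 0.058), and 4042 higher and 4367 lower genes were called with LPS. It changed no other call among the 9 genes, nor any count of them or of all genes by over 1.5 times, but Sdhc (-0.18), Mpc1 (0.62) and Aco1 (-0.20) with LPS, Fdx1 with IL-4+anti-CD40 (0.35), Pcx with DSF and LPS (0.61), and Idh3b (-0.19) and Dlst (-0.18) in the interaction also missed the threshold under it. With single libraries in the second experiment, depth gives counting error only.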
